A study of Xenopus laevis with 8 samples.

Results

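Nuclear receptors are transcription factors that small, mostly fat-soluble molecules can switch on. Hormones such as glucocorticoids, retinoic acid and thyroid hormone act through them, and so do fatty acids, sterols and bile acids, while orphan members have no settled hormone. A typical receptor binds DNA through paired zinc fingers and its ligand through a separate domain, often as a dimer and often with a retinoid X receptor (RXR) as the partner. Dexamethasone, the drug used in this study, is a synthetic ligand of the glucocorticoid receptor, which nr3c1 encodes, and it was added to switch on an injected fusion that carries a glucocorticoid receptor (GR) domain. The arrays also read the embryo's own receptor genes.

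The family was taken by symbol, not by measured values. Every platform symbol spelled like a nuclear receptor gene was kept, apart from the COUP-TF and Tailless genes, with the probe set of highest mean standing for each symbol. This gave 39 symbols among 11303 named genes. Of the 39, 34 are receptors, and 5 match by spelling without being receptors: esrp1.L encodes a splicing regulator, esr-5.L a Hairy/E(spl)-related repressor, thrap3 and thrap3.S an RNA-binding coactivator, and nr2c2ap.S a protein that binds an orphan receptor. The 4 probe sets that the annotation gives to several matching symbols were not used.

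The arrays came from anterior endoderm of Xenopus laevis embryos dissected at Nieuwkoop and Faber (NF) stage 15. In the DEX group (4 arrays), embryos carrying mRNA for the fusion Ngn3-GR were kept in 10 µM dexamethasone for 4 hours from stage 12, and in the no_DEX group (4 arrays) embryos carrying the same mRNA were not. All 8 arrays thus share the fusion, which was injected at the 8-cell stage into 2 dorsal vegetal blastomeres, and arrays of embryos given the drug without the fusion were not analysed here. The labels number the biological replicates 1 to 4 in each group and do not say whether a replicate was 1 embryo or a pool.

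Signals are RMA values on the log2 scale, where a step of 1 is a 2-fold difference. The highest of 17 control probe sets for absent tags read 4.40, and a gene is called above background here when its mean in at least 1 group exceeded that value. Brightness differs between probe sets for reasons other than abundance, so each gene is compared only with itself. Changes are DEX minus no_DEX, means are given with their SD over 4 arrays, and a pair is a DEX and a no_DEX array with the same replicate number. Group differences were tested with limma over 32539 probe sets, without and with the replicate number as a block, and adjusted by Benjamini-Hochberg.

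Markers of several tissues were read on the same arrays. Of 18 endoderm marker symbols 17 were above background, and their median per array was 9.12 to 9.64 in DEX and 8.63 to 9.39 in no_DEX. Neural markers (11 of 12 above background) had array medians of 8.07 to 8.86 in DEX and 8.31 to 8.92 in no_DEX. Skeletal muscle markers (9 of 10) had 6.46 to 8.25 in DEX and 6.08 to 8.86 in no_DEX. Notochord markers (7 of 7) had 6.52 to 7.21 in DEX and 7.25 to 7.99 in no_DEX, without overlap. By pair, the median change of notochord markers was -0.33, -0.60, -0.70 and 0.11 for replicate numbers 1 to 4. The separated array medians thus do not show a fall of this set in pair 4. For skeletal muscle markers the median change by pair was -1.0, -1.8, -1.0 and 0.19. Epidermal markers (6 of 6) had 12.12 to 12.99 in DEX and 12.32 to 13.00 in no_DEX, and blood markers (3 of 6) had 4.59 to 5.11 in DEX and 5.0 to 5.37 in no_DEX. The median of the 3 blood markers above background went the other way, at 7.64 to 8.32 in DEX and 6.44 to 7.15 in no_DEX, without overlap. Only 1 of the 6 blood symbols had a change above 0, so this median does not show a rise of the detected blood markers as a set. With the block, 1 neural and 1 blood symbol rose, against 0.329% of all probe sets. In the same fit 1 neural, 1 notochord and 1 blood symbol fell, against 0.224%. Changes were below 0 for 11 of 12 neural, 9 of 10 skeletal muscle, 5 of 7 notochord, 5 of 6 epidermal and 5 of 6 blood markers. Over all probe sets, 16016 of 32539 were below 0. Among endoderm markers 14 of 18 were above 0. By pair, their median change was 0.67, -0.005, 0.09 and -0.08 for replicate numbers 1 to 4, so pair 1 differed most. The part of other tissues in the receptor values below was not tested, and on arrays of a dissected tissue fewer cells of a type cannot be told apart from less RNA per cell.

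None of the 39 symbols passed the test of dexamethasone. Of them, 0 were called without the block, against 2 of all probe sets (0.00615%), and 0 were called with it, against 180 of all probe sets (0.553%). At an unadjusted p under 0.05, limma listed 4 of the 39 without the block (10.3%, against 4.24% of all probe sets) and 9 with it (23.1%, against 12.5%). The smallest adjusted p among the 39 was 0.772 without the block, for esrra.L, and 0.106 with it, for hnf4a.S. Over the 39, the median log2 change was 0.0059, against 0.0023 over all probe sets, with 20 above 0 and 19 below. Among the 6 COUP-TF and Tailless symbols, which were not counted in the 39, 3 passed with the block and 0 without it. The 3 were nr2f1.L, nr2f1.S and nr2e1.S, which fell by 0.97, 0.81 and 0.72 on the log2 scale (limma adjusted p = 0.0240, 0.0239 and 0.0308 with the block). Only 2 of the 8 arrays were above 4.40 for nr2f1.S, and its DEX values of 3.69 to 3.90 lay in the range of the controls.

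Most of the receptors were detected, as were most probe sets on the arrays. Of the 34 receptors, 22 were above background, against 22454 of all 32539 probe sets. Of these 22, 20 were above it on all 8 arrays. Another 10 receptors stayed at or below the highest control on every array, with values of 2.42 to 4.13. All 5 symbols that are not receptors were above background on all 8 arrays. Among the 34 receptors the changes lay between -0.57 for nr4a1.L and 0.23 for nr2c1.L. For the 22 above background, the 95% interval of the change lay within 2-fold either way for 20 in both fits, the exceptions being nr4a1.L and nr4a1.S. It lay within 1.5-fold either way for 12 without the block and 19 with it, nr1d1.L joining the exceptions.

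**Figure D1:**
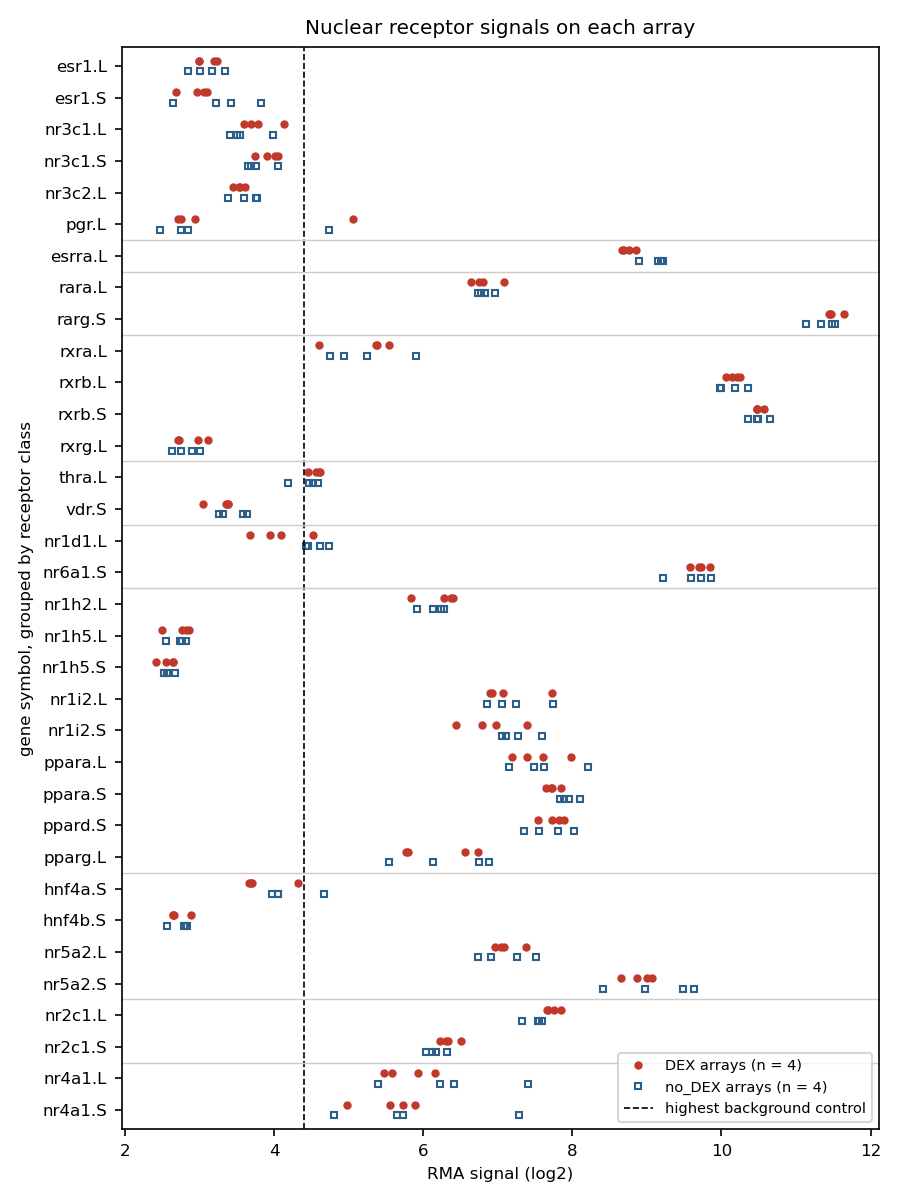
RMA signal (log2, horizontal axis) of the 34 nuclear receptor genes on each of 4 DEX arrays (filled circles) and 4 no_DEX arrays (open squares), grouped by class, with the highest background control at 4.40 as a dashed line. The nr3c1 and nr3c2 genes lie left of the line on all 8 arrays, and the groups overlap for every receptor but esrra.L and nr2c1.L.

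Both corticosteroid receptors read within the range of the background controls, whose median was 3.14 and whose highest value was 4.40. The glucocorticoid receptor gene nr3c1.L measured 3.69, 3.60, 4.13 and 3.79 in DEX replicates 1 to 4, against 3.41, 3.54, 3.99 and 3.51 in no_DEX. All 8 values were under 4.40, the DEX value was the higher in 4 of 4 pairs, and the groups overlapped. Its log2 change was 0.19 (95% interval -0.17 to 0.55, limma adjusted p = 1.00), and with the block the interval was 0.0048 to 0.37 (limma adjusted p = 0.386). Without DEX replicate 3 the change was 0.08, and without replicate 3 of no_DEX it was 0.31. Number 3 was the highest in both groups, and each of these fits left 1 of its arrays without its pair. With the block and a whole replicate number left out, the change was 0.16 to 0.23. A second nr3c1.L probe set, at 3.24 ± 0.04 in DEX and 3.12 ± 0.07 in no_DEX, was also higher in 4 of 4 pairs by 0.12 without passing (limma adjusted p = 0.577 with the block).

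The homeolog nr3c1.S, the copy of the same gene on the other subgenome of this allotetraploid frog, measured 4.05, 3.74, 4.01 and 3.91 in DEX, against 3.69, 3.65, 3.76 and 4.05 in no_DEX. It was higher in DEX in 3 of 4 pairs, with a log2 change of 0.14 (limma adjusted p = 0.637 with the block). The mineralocorticoid receptor gene nr3c2.L, whose product also binds glucocorticoids, measured 3.53, 3.62, 3.45 and 3.55 in DEX, against 3.60, 3.77, 3.76 and 3.38 in no_DEX. Its log2 change was -0.09 (95% interval -0.34 to 0.15), and with the block the limma adjusted p was 0.761. RMA narrows differences between weak signals, so changes of these 4 probe sets may be understated, and a signal in the range of the controls does not show that a transcript was absent. The labels do not say from which species the GR domain of the fusion came, and whether these probe sets can detect the injected mRNA was not tested.

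Known glucocorticoid-response genes of other systems were read beside the receptors. The list was chosen with earlier results of these data known, so its count is not an independent test of a response. Of 35 measured, 3 rose and 0 fell with the block, against 0.329% and 0.224% of all probe sets, and 0 passed without it. These were pdk4.L, pdk4.S and arrdc2.S, by 1.28, 1.06 and 0.63 on the log2 scale (limma adjusted p = 0.0244, 0.0424 and 0.0355 with the block). The median of these 35 was 0.06, against 0.0023 over all probe sets. Of 16 measured genes for chaperones and cochaperones that hold steroid receptors ready for ligand, 0 passed in either fit. Changes were below 0 for 13 of them, against 16016 of all 32539 probe sets, and the median was -0.08. By pair, their median was -0.35, -0.07, -0.008 and 0.004 for replicate numbers 1 to 4, so pair 1 differed most. The lowest of the 16 was stip1.L at -0.27, which encodes the cochaperone that links Hsp70 to Hsp90.

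The sex steroid receptors were dim too, apart from pgr.L on 2 arrays. The estrogen receptor genes esr1.L and esr1.S stayed under 4.40 on all 8 arrays, with changes of 0.01 and -0.33. Second, dimmer probe sets of esr1.L and esr1.S were at -0.05 and -0.006. The progesterone receptor gene pgr.L stood out by replicate number and not by treatment. It measured 5.06, 2.71, 2.75 and 2.94 in DEX, against 4.74, 2.85, 2.75 and 2.47 in no_DEX. Both arrays of replicate number 1 were above background and the other 6 were not, whatever the treatment. The difference between replicate numbers passed (limma F test, adjusted p = 2.09e-04), while the change with dexamethasone was 0.16 (adjusted p = 0.625 with the block). The gene pgr.L, whose group means were under background, was outside the naming rule and was chosen after its values were seen.

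The estrogen-related orphan receptor esrra.L had the smallest p of the family without the block. Its product acts without a known natural hormone on genes of mitochondrial energy metabolism. The signal was 8.69, 8.86, 8.75 and 8.67 in DEX, against 9.22, 9.18, 8.90 and 9.15 in no_DEX. Every DEX array lay below every no_DEX array, and pair 3 had the narrowest gap. The means were 8.74 ± 0.08 in DEX and 9.11 ± 0.15 in no_DEX, a log2 change of -0.37 or 0.774-fold (95% interval -0.59 to -0.14). It did not pass in either fit (limma adjusted p = 0.772, and 0.136 with the block).

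Separation of the groups was rare here as elsewhere on the arrays. Groups did not overlap for 2 of the 39 symbols (5.13%), esrra.L and nr2c1.L, against 2.75% of all probe sets. All 4 pairs went the same way for 10 of the 39 (25.6%), against 21.1% of all probe sets, 5 of them up and 5 down.

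The testicular receptor gene nr2c1, whose orphan product binds the direct repeats also used by retinoid receptors, read higher with dexamethasone in both homeologs without passing. The nr2c1.L signal was 7.68, 7.75, 7.66 and 7.85 in DEX, against 7.55, 7.53, 7.32 and 7.60 in no_DEX. The nr2c1.S signal was 6.23, 6.30, 6.33 and 6.51 in DEX, against 6.17, 6.12, 6.04 and 6.32 in no_DEX. Both were higher in 4 of 4 pairs, without overlap for nr2c1.L and with overlap for nr2c1.S. The log2 changes were 0.23 and 0.18, and neither passed (limma adjusted p = 0.260 and 0.399 with the block).

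**Figure D2:**
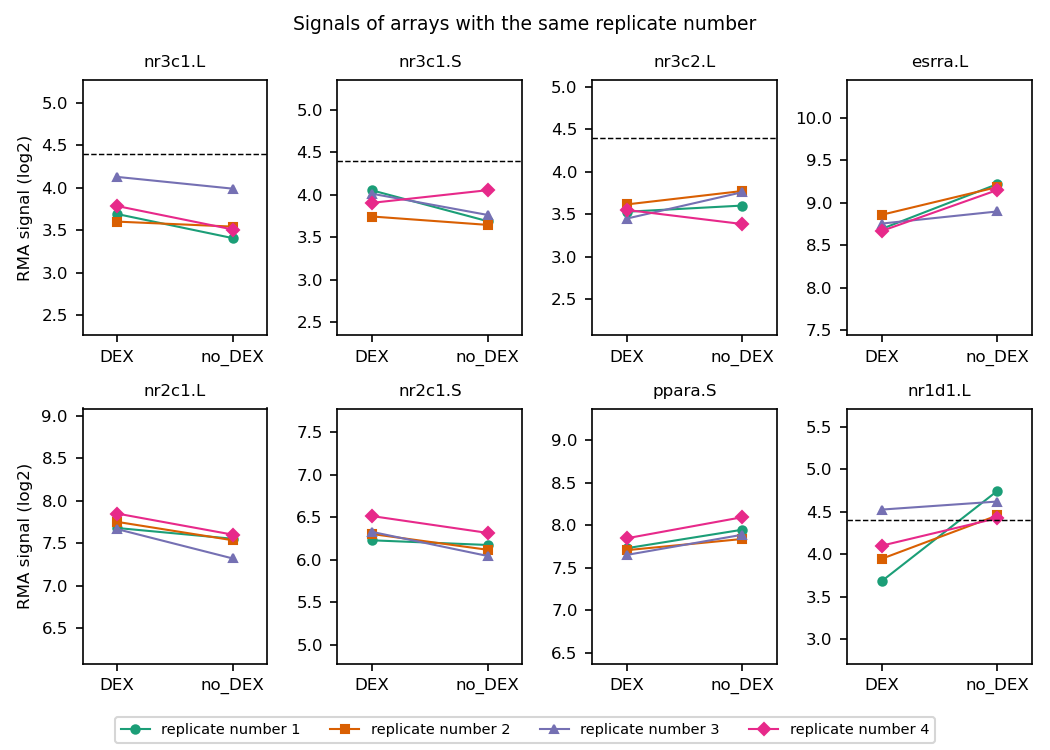
RMA signal (log2, vertical axes all 3 units long) of 8 genes in DEX (left) and no_DEX (right), with a line joining the 2 arrays of each replicate number and the highest background control dashed where it falls in range. The lines of esrra.L, ppara.S and nr1d1.L are higher in no_DEX in 4 of 4 pairs and those of nr3c1.L, nr2c1.L and nr2c1.S are higher in DEX in 4 of 4, with no gene passing the test.

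For the retinoic acid receptors no difference was called, and the intervals were narrow. The gene rarg.S, one of the receptors for retinoic acid, measured 11.50 ± 0.10 in DEX and 11.37 ± 0.18 in no_DEX, a log2 change of 0.13 (95% interval -0.07 to 0.33 with the block). Its probe set is marked _s, which means that its probes can match more than 1 transcript. The rara.L signal, for the alpha receptor, was 6.82 ± 0.19 in DEX and 6.82 ± 0.10 in no_DEX, with an interval of -0.25 to 0.24 with the block. Dimmer rara.L probe sets, above background on all 8 arrays, were at 0.07 and 0.13 (limma adjusted p = 0.831 and 0.559 with the block). The last was higher in 4 of 4 pairs.

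No RXR gene, the partners of the family, passed either. The genes rxrb.L and rxrb.S had changes of 0.04 and 0.0059, with intervals inside -0.21 to 0.28 without the block. The rxra.L signal varied more, from 4.60 to 5.54 in DEX and from 4.75 to 5.90 in no_DEX, around a change of 0.0099. The rxrg.L probe set stayed under 4.40 on all 8 arrays.

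Genes that make, carry and break down retinoic acid were counted too. Of 18 measured, 11 were above background and 0 passed in either fit, and the median was -0.05. Changes were above 0 for 5 and below for 13, against 16523 above and 16016 below over all probe sets. By pair, their median was 0.02, 0.06, -0.14 and -0.08 for replicate numbers 1 to 4. The widest change was that of cyp26c1.S, which encodes an enzyme that degrades retinoic acid, at 8.51 ± 0.36 in DEX and 9.46 ± 0.41 in no_DEX. It was lower in 4 of 4 pairs by 0.95 on the log2 scale without passing (limma adjusted p = 0.665, and 0.0967 with the block). The enzyme gene aldh1a2.L, for the main embryonic step of retinoic acid synthesis, was at -0.27 (limma adjusted p = 0.309 with the block).

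The thyroid hormone receptor gene thra.L lay close to the background limit, at 4.56 ± 0.07 in DEX and 4.44 ± 0.18 in no_DEX, with a change of 0.12. The vitamin D receptor gene vdr.S stayed under 4.40 on all 8 arrays. Of 15 measured genes for thyroid hormone supply and response, 4 were above background and 0 passed in either fit. The median of these 15 was -0.03.

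The circadian repressor gene nr1d1.L (Rev-erb alpha), a heme-binding orphan, neighbours thra.L in the Xenopus_laevis_v10.1 gene table. It measured 3.68, 3.95, 4.52 and 4.10 in DEX, against 4.74, 4.46, 4.62 and 4.42 in no_DEX. The DEX array was the lower in 4 of 4 pairs, by 0.09 in pair 3 and by 1.06 in pair 1. All 4 no_DEX arrays were above 4.40 and only replicate 3 of DEX was, so the DEX mean of 4.06 lies in the range of the controls. The log2 change was -0.50 (95% interval -0.89 to -0.11), and it did not pass (limma adjusted p = 1.00, and 0.203 with the block). The germ cell nuclear factor gene nr6a1.S, an orphan repressor of early embryos, measured 9.71 ± 0.11 in DEX and 9.60 ± 0.28 in no_DEX. Among the 4 nr6a1.S probe sets, a dimmer one had every DEX array above every no_DEX array. It was higher by 0.18 on average, without passing (limma adjusted p = 0.390 with the block). The other dimmer ones, with group means under 4.40, overlapped and were at 0.02 and 0.24 (limma adjusted p = 0.967 and 0.304 with the block).

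**Figure D3:**
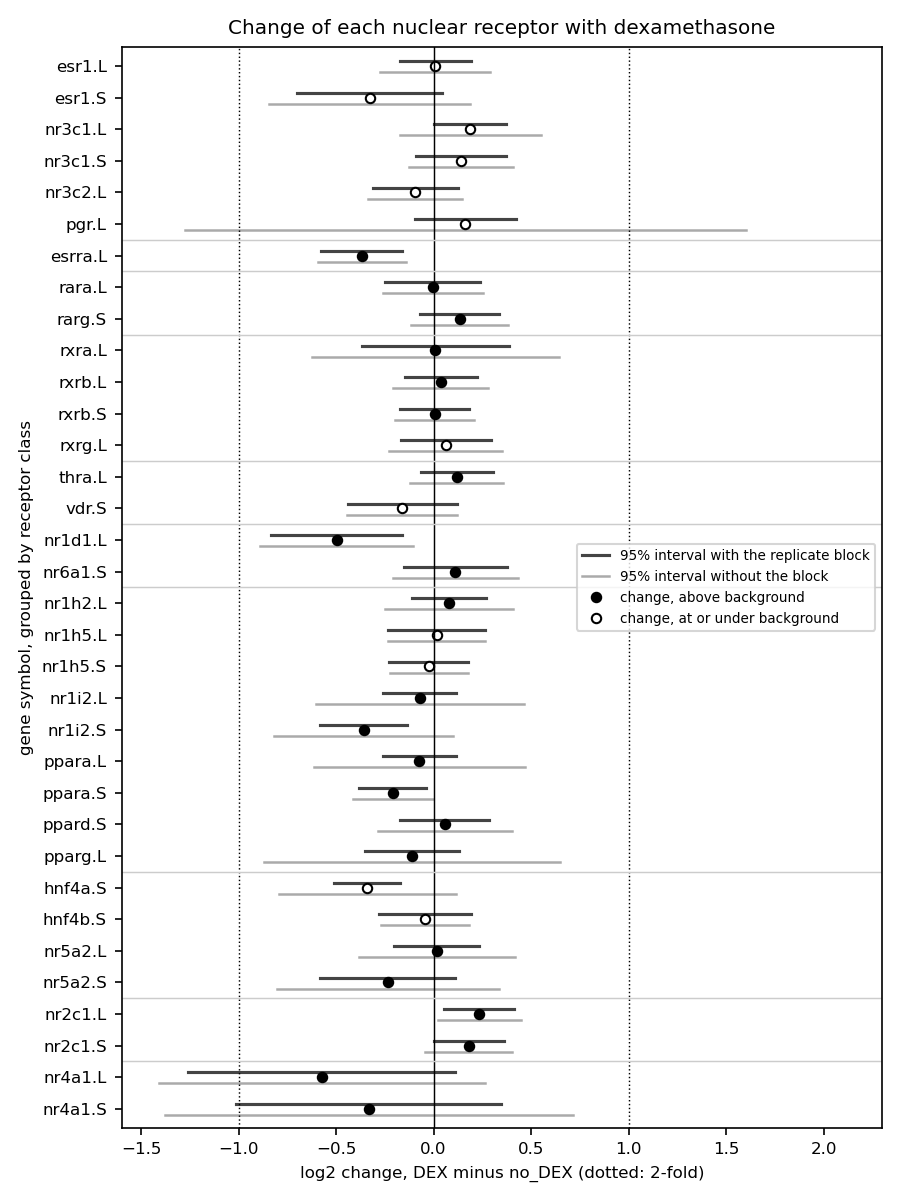
Log2 change (DEX minus no_DEX, horizontal axis) of the 34 receptors with its 95% interval from limma, unadjusted for the number of genes, with the replicate block (dark) and without it (light). Filled points are genes above background, open points are not, and dotted lines mark 2-fold. All points lie between -0.57 and 0.23, and the intervals of nr4a1.L and nr4a1.S cross the 2-fold line on the lower side in both fits.

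Receptors for fatty acids, sterols and foreign compounds included 7 of 9 above background. The fatty acid receptor gene ppara.S measured 7.73, 7.71, 7.65 and 7.85 in DEX, against 7.95, 7.84, 7.89 and 8.10 in no_DEX. It was lower in 4 of 4 pairs by 0.13 to 0.25, a narrow spread, with a log2 change of -0.21 (limma adjusted p = 1.00, and 0.294 with the block). Its homeolog ppara.L was at -0.07, and ppard.S and pparg.L, for the other peroxisome proliferator-activated receptors, were at 0.06 and -0.11.

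The receptor gene nr1i2, counterpart of the mammalian xenobiotic receptor PXR, was measured in both homeologs. The nr1i2.S signal was 7.39, 6.98, 6.79 and 6.44 in DEX, against 7.59, 7.27, 7.06 and 7.12 in no_DEX. It was lower in 4 of 4 pairs, with overlapping groups and a log2 change of -0.36 (limma adjusted p = 0.176 with the block). A second, dimmer nr1i2.S probe set, above background on all 8 arrays, was at -0.16 and lower in 3 of 4 pairs, with pair 3 higher in DEX by 0.18. For nr1i2.L the change was -0.07, with 6.90, 6.92, 7.07 and 7.73 in DEX and 7.06, 6.85, 7.25 and 7.74 in no_DEX. This difference between the homeologs, 0.29 on the log2 scale, was the widest among the 6 homeolog pairs in which both genes were above background, and it was not tested. It rests on the brighter nr1i2.S probe set and is smaller with the second.

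The remaining members of the metabolic class did not pass. The liver X receptor gene nr1h2.L, for an oxysterol receptor, was at 0.08. A second, dimmer nr1h2.L probe set, above background on all 8 arrays, was at -0.07. The genes nr1h5.L and nr1h5.S, for relatives of the bile acid receptor FXR, stayed under 4.40 on all 8 arrays. Of 15 measured genes of sterol, bile acid and lipid metabolism, 6 were above background and 0 passed in either fit. The median over all 15 was 0.09. Of 10 genes of steroid synthesis, 3 were above background and 0 passed in either fit, with a median over all 10 of 0.02.

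Receptors that act in endoderm and its organs were mixed in detection. The genes nr5a2.L and nr5a2.S encode a receptor of liver, pancreas and early embryos, and the paralogs hnf4a and hnf4b encode hepatocyte nuclear factor 4. The nr5a2.S signal was 8.65, 8.86, 8.99 and 9.07 in DEX, against 8.41, 9.49, 8.98 and 9.64 in no_DEX. Replicates 2 and 4 of no_DEX were above all DEX arrays, and replicate 1 of no_DEX was below all of them. The change of nr5a2.S was -0.23, and that of nr5a2.L, at 7.12 ± 0.18 in DEX and 7.10 ± 0.35 in no_DEX, was 0.02.

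The hnf4a.S probe set, named because it had the smallest adjusted p of the family with the block and chosen after its values were seen, was near background. It measured 3.69, 3.71, 3.67 and 4.32 in DEX, against 3.97, 4.06, 4.05 and 4.67 in no_DEX, so that only replicate 4 of no_DEX exceeded 4.40. The DEX array was the lower in 4 of 4 pairs, by 0.28 to 0.38, while the 2 arrays of replicate number 4 were the highest of their groups. The log2 change of -0.34 did not pass (limma adjusted p = 0.106 with the block). A second, dimmer hnf4a.S probe set was lower in 4 of 4 pairs by 0.15 (limma adjusted p = 0.453 with the block), and hnf4b.S was at background on all 8 arrays.

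The orphan receptor gene nr4a1, which is switched on rapidly by many stimuli and has no settled ligand, had the widest spread over the 8 arrays of the receptors above background. The nr4a1.L signal was 5.58, 5.94, 5.48 and 6.16 in DEX, against 5.40, 6.41, 7.40 and 6.23 in no_DEX. The nr4a1.S signal was 4.98, 5.73, 5.56 and 5.89 in DEX, against 4.80, 5.65, 7.29 and 5.73 in no_DEX. In both homeologs replicate 3 of no_DEX was the highest of the 8 arrays. The log2 changes of -0.57 and -0.33 did not pass (limma adjusted p = 0.490 and 0.725 with the block). Without that array they were -0.23 for nr4a1.L and 0.14 for nr4a1.S, so the direction of nr4a1.S turned.

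Other genes known for rapid induction were then read on the same array, a list chosen after the nr4a1 values were seen. Of 20 such symbols above background, 2 were highest on replicate 3 of no_DEX, dusp1.L by 0.05 and ier2.S by 0.03 over the next array. Over all probe sets above background, 7.75% were highest on that array. The fos.S signal there was 6.52, against 7.28 on replicate 4 of no_DEX.

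**Figure D4:**
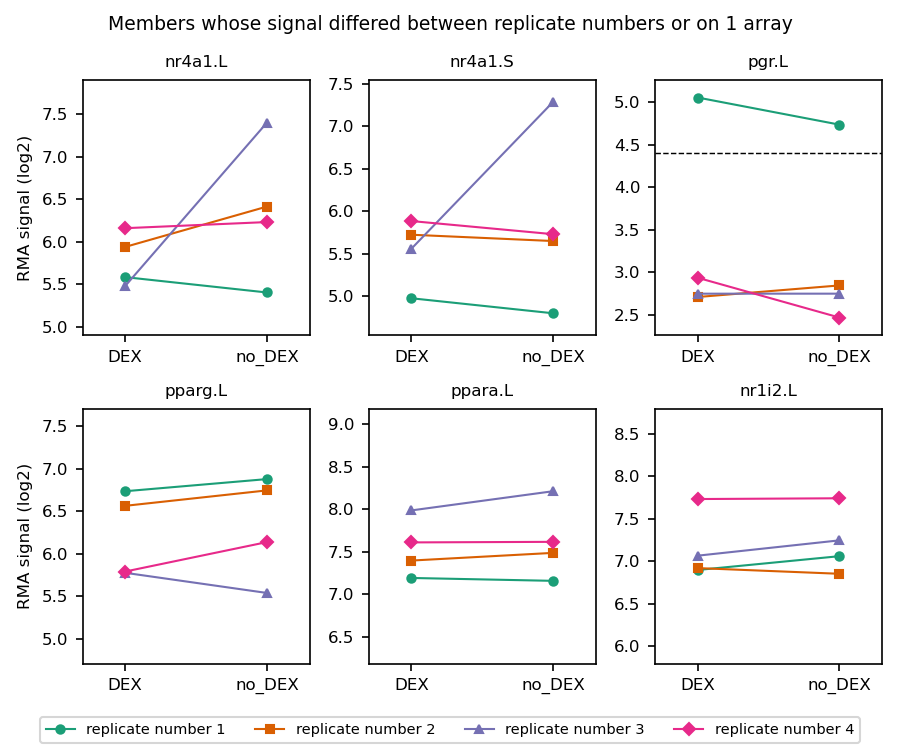
RMA signal (log2, vertical axes all 3 units long) of 6 genes in DEX (left) and no_DEX (right), with a line joining the 2 arrays of each replicate number and the highest background control dashed where it falls in range. Replicate number 3 of no_DEX lies above the other arrays for nr4a1.L and nr4a1.S, and both arrays of replicate number 1 lie above the rest for pgr.L.

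Differences between replicate numbers, whatever the treatment, were called for more of the family than differences with dexamethasone. The limma F test called 8 of the 39 symbols between replicate numbers (20.5%), against 20.7% of all probe sets, a share at the level of the arrays as a whole.

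Several of these 8 are metabolic receptors. The adipogenic receptor gene pparg.L measured 6.73, 6.56, 5.78 and 5.79 in DEX, against 6.88, 6.74, 5.54 and 6.14 in no_DEX, so that replicate numbers 1 and 2 were the higher ones in both groups (limma F test, adjusted p = 0.00382). For ppara.L, with 7.19, 7.40, 7.99 and 7.61 in DEX against 7.16, 7.49, 8.21 and 7.62 in no_DEX, number 3 was the highest in both groups (limma F test, adjusted p = 0.00541). For nr1i2.L number 4 was the highest in both groups (limma F test, adjusted p = 0.00617). The others called were nr1i2.S, hnf4a.S, nr3c1.L, pgr.L and nr2c2ap.S, the last with means by replicate number over a range of 1.29 and no receptor function. No label says what a replicate number stood for.

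Coregulators, the proteins that receptors recruit to activate or repress genes, were counted as a list. Of 25 measured, 22 were above background and 0 passed in either fit. Changes were below 0 for 18, against 16016 of all 32539 probe sets, and the median was -0.04. By pair, their median was 0.03, -0.04, -0.01 and -0.12 for replicate numbers 1 to 4. The widest change was that of the corepressor deacetylase gene hdac3.S, at 6.01 ± 0.60 in DEX and 6.57 ± 0.90 in no_DEX, a log2 change of -0.57 (limma adjusted p = 0.436 with the block). The corepressor gene ncor1.S was at -0.19 and the coactivator gene ncoa4.S at 0.10.

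Among the symbols that are not receptors, esr-5.L had the widest change. The repressor it encodes belongs to the Notch-responsive Hairy/E(spl) family. The esr-5.L signal was 11.13, 10.90, 11.50 and 11.51 in DEX, against 10.77, 10.58, 11.60 and 10.62 in no_DEX, higher in 3 of 4 pairs (log2 change 0.37, limma adjusted p = 0.342 with the block). With single arrays left out the change ran from 0.27 to 0.60, the last without replicate 3 of no_DEX. This probe set is marked _s, so its probes can match more than 1 transcript. A second esr-5.L probe set was higher in 4 of 4 pairs by 0.48 (limma adjusted p = 0.217 with the block). The splicing regulator gene esrp1.L was higher in 4 of 4 pairs by 0.04 to 0.15.

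Agreement between probe sets and between homeologs was counted last. For 10 of the 15 symbols with several probe sets, all of them lay on the same side of 0. Among the 6 homeolog pairs above background, 5 had both changes on the same side, and the exception was nr5a2, with 0.02 and -0.23. The second, dimmer probe sets of nr5a2.L and nr5a2.S were at -0.07 and 0.02, that of nr5a2.S under 4.40 on every array. The sides of the nr5a2 changes thus depend on the probe sets chosen. The 3 widest differences between homeologs were 0.29 for nr1i2, 0.25 for nr5a2 and -0.24 for nr4a1, the .L change minus the .S change. Shares over all symbols with several probe sets and over all homeolog pairs of the arrays were not computed. The counts of agreement therefore cannot be called high or low.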

How the data were processed

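RNA from anterior endoderm was measured on 8 Affymetrix arrays, 4 DEX and 4 no_DEX. The authors deposited log2 values, 1 column per array, and per the submitters' processing notes they come from RMA, which corrects background, makes the distributions of the arrays equal and combines the probes of a probe set, version not given in the sources used here. Per the labels, typically 10 µg of RNA was used and 15 µg of cRNA fragmented. The table held 32635 probe sets, and 96 Affymetrix controls were left out. Array medians were 6.02 to 6.12, so nothing was rescaled. The platform annotation gave 1 symbol to 15495 probe sets and several to 279, and 16765 stay unnamed. All 38 member symbols found in the NCBI table of Xenopus_laevis_v10.1 were unchanged.

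The test was two-sided, with lmFit and eBayes of limma 3.58.1 under R 4.3.3 and calls at an adjusted p under 0.05, and the procedure was tested on simulated data. The numbers pair the arrays: same-numbered arrays correlated at 0.63, 0.78, 0.77 and 0.69 in their deviations from the group means, against at most 0.20 otherwise. Values with the block are therefore printed. P-values without the block rest on the spread between the arrays of a group. Those with the block rest on the spread of the pair differences, with differences between replicate numbers taken out. In both fits eBayes draws the variance of each probe set toward a value estimated from all probe sets. A p-value thus does not rest on the spread of that probe set alone. The number of arrays limits precision in both. Members named by rule were the nr3c1 and nr3c2 genes, the 8 largest rises and 8 largest falls above background, the 3 widest homeolog differences, the 4 smallest p for replicate number above background and members with an outlying array, 24 in all. Values of other members, such as rara.L, rxra.L, rxrb.L, esr1.L, esr1.S, ppard.S, pgr.L and hnf4a.S, were printed outside this rule. The list genes aldh1a2.L, ncor1.S and ncoa4.S neither passed nor had the widest change of their lists. Members, lists and alternatives were chosen with earlier results of these data known. Alternatives were centring, a filter at background, an intensity trend, averaging probe sets, the block and leaving out arrays.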

Additional observations from a re-analysis of the deposited data

Results flagged for a closer look

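An array far from the others of its group was found for 2 members, out of 54 groups of 4 arrays tested among members above background. Chance alone flags about 5% of groups. The rxrb.S signal of DEX replicate 4 was 10.57, against 10.48 on the nearest of the other DEX arrays, a gap of under 0.1 on the log2 scale. The rarg.S signal of DEX replicate 2 was 11.65, against 11.47 on the nearest.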

How the results depend on the processing

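No member of the family passed under any of the alternatives run, so the count of 0 held for each, and over all of them the smallest adjusted p of a member's probe set was 0.102. The count over all probe sets did depend on the setting. It was 2 without the block, 180 with the replicate block, 169 with the block and centred arrays and 150 with the block above background only, the last 2 added after seeing the data. Leaving out a replicate number with the block gave 34, 4, 26 and 120 calls without numbers 1 to 4, each from fewer arrays. Leaving out single arrays without the block gave 0 to 3. Between replicate numbers 6723 probe sets and 8 members were called, 7377 and 10 with centred arrays, and 5954 and 6 above background only. Followed singly, 25 probe sets kept their direction in 439 of 464 values under alternatives. The 25 turned values were all of changes that did not pass, and the cause was not tested. Averaging probe sets put nr5a2.L at -0.028. With the block and a replicate number left out, nr5a2.L was at -0.055 without number 1 and -0.024 without number 3, nr4a1.S at 0.14 and rxrb.S at -0.030 without number 3, and nr6a1.S at -0.021 without number 1. With single arrays left out, the changes ran from -0.26 to 0.10 for nr1i2.L, -0.46 to 0.074 for nr2c2ap.S, -0.69 to 0.14 for nr4a1.S, -0.11 to 0.15 for nr5a2.L, -0.016 to 0.20 for nr6a1.S, -0.23 to 0.13 for ppara.L, -0.37 to 0.076 for pparg.L and -0.039 to 0.058 for rxrb.S. Without turning, they ran from 0.080 to 0.31 for nr3c1.L, 0.093 to 0.23 for nr3c1.S, -0.18 to -0.046 for nr3c2.L, -0.52 to -0.21 for nr1i2.S and -0.47 to -0.064 for nr5a2.S. These single-array fits had no block, so 1 array of a replicate number stayed without its pair. With the block and a whole replicate number left out, nr1i2.L ran from -0.12 to -0.035 and nr2c2ap.S from -0.26 to -0.059, without turning. The 12 receptors at or under background, the nr3c1 and nr3c2 genes among them, are limited by signal over background.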
